A study of Mus musculus with 6 samples.

Results

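The mitochondrial ribosomal proteins are described here in marrow progenitors sorted for or against a Hes1 reporter. Members were taken by name: every probe set annotated with exactly 1 gene symbol that begins with Mrpl or Mrps followed by a digit. This gave 156 probe sets of 76 genes, 47 with Mrpl symbols (large subunit) and 29 with Mrps symbols (small subunit), among 45037 probe sets and 18193 genes with a probe set of their own. The family was chosen by the measured difference between GFP-positive and GFP-negative cells, which was known from earlier results on these same arrays. Counts, folds and adjusted p-values for that difference are therefore descriptions of these 6 arrays and not tests of the family. Each gene is summarised by its brightest probe set over the 6 arrays unless another is named.

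All cells came from male mice aged 6 weeks with the genotype Hes1 GFP/WT, so the GFP-negative controls also carried 1 reporter allele and 1 wild-type allele. The sorted cells were lineage-negative, c-Kit+ and Sca-1-, a gate that the labels call adult myeloerythroid progenitors, and 3 arrays of GFP-positive cells were set against 3 arrays of GFP-negative cells. Hes1 is a transcriptional repressor best known as a target of Notch signalling. The labels do not say whether the 3 replicates came from separate animals or pools, so a p-value here reflects how far these arrays scatter, and that scatter may be technical. Each array started from 5 ng of RNA that was amplified before hybridisation.

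Mitochondria hold ribosomes of their own, which translate the few messenger RNAs encoded by mitochondrial DNA into subunits of the respiratory chain and of ATP synthase. The RNA of these ribosomes is transcribed inside the organelle, while all of their proteins are encoded in the nucleus, made in the cytosol and imported. Some of these proteins descend from bacterial ribosomal proteins and others occur only in mitochondria. Red cell precursors depend on mitochondria for iron handling and for several steps of haem synthesis.

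Mitochondrial ribosomal protein transcripts were higher in the GFP-positive progenitors, by a small amount per gene and in both subunits. The difference lay above 0 for 71 of 76 genes (93.4%, against 64.6% of all genes), with a median of 0.29 on the log2 scale, or 1.22-fold. The same median was 0.11 over all 18193 genes and 0.05 over the 6729 genes whose probe set lies in the brightest 25% of the array, where all 76 summary probe sets lay. At a limma adjusted p under 0.05, 20 members (26.3%) were higher, against 8.15% of all genes and 11.5% of the genes in the brightest 25%. No member was lower at that threshold, where 9.92% of all genes were; at an unadjusted p under 0.05 limma gave 41 higher and 0 lower. Because the family was selected on this contrast, nothing is read from these shares beyond their size.

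The 3 GFP-positive arrays lay above all 3 GFP-negative arrays for 52 members (68.4%), compared with 28.9% of all genes and 30.8% of the genes in the brightest 25%. The reverse held for 1 member, Mrpl33. A further 14 members had a difference above 0 and a limma adjusted p between 0.05 and 0.1. The changes ranged from -0.22 for Mrpl33 to 0.68 for Mrpl50, so no member reached the 2.41-fold of Hes1 itself. The number of calls depended on single arrays. Leaving out 1 GFP-negative array gave 19 (array 1 out), 2 (array 2 out) or 1 (array 3 out). Leaving out 1 GFP-positive array gave 7 (array 1 out), 4 (array 2 out) or 6 (array 3 out). The calls over all genes fell in the same fits, from 1482 higher to between 614 and 1134.

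**Figure D1:**
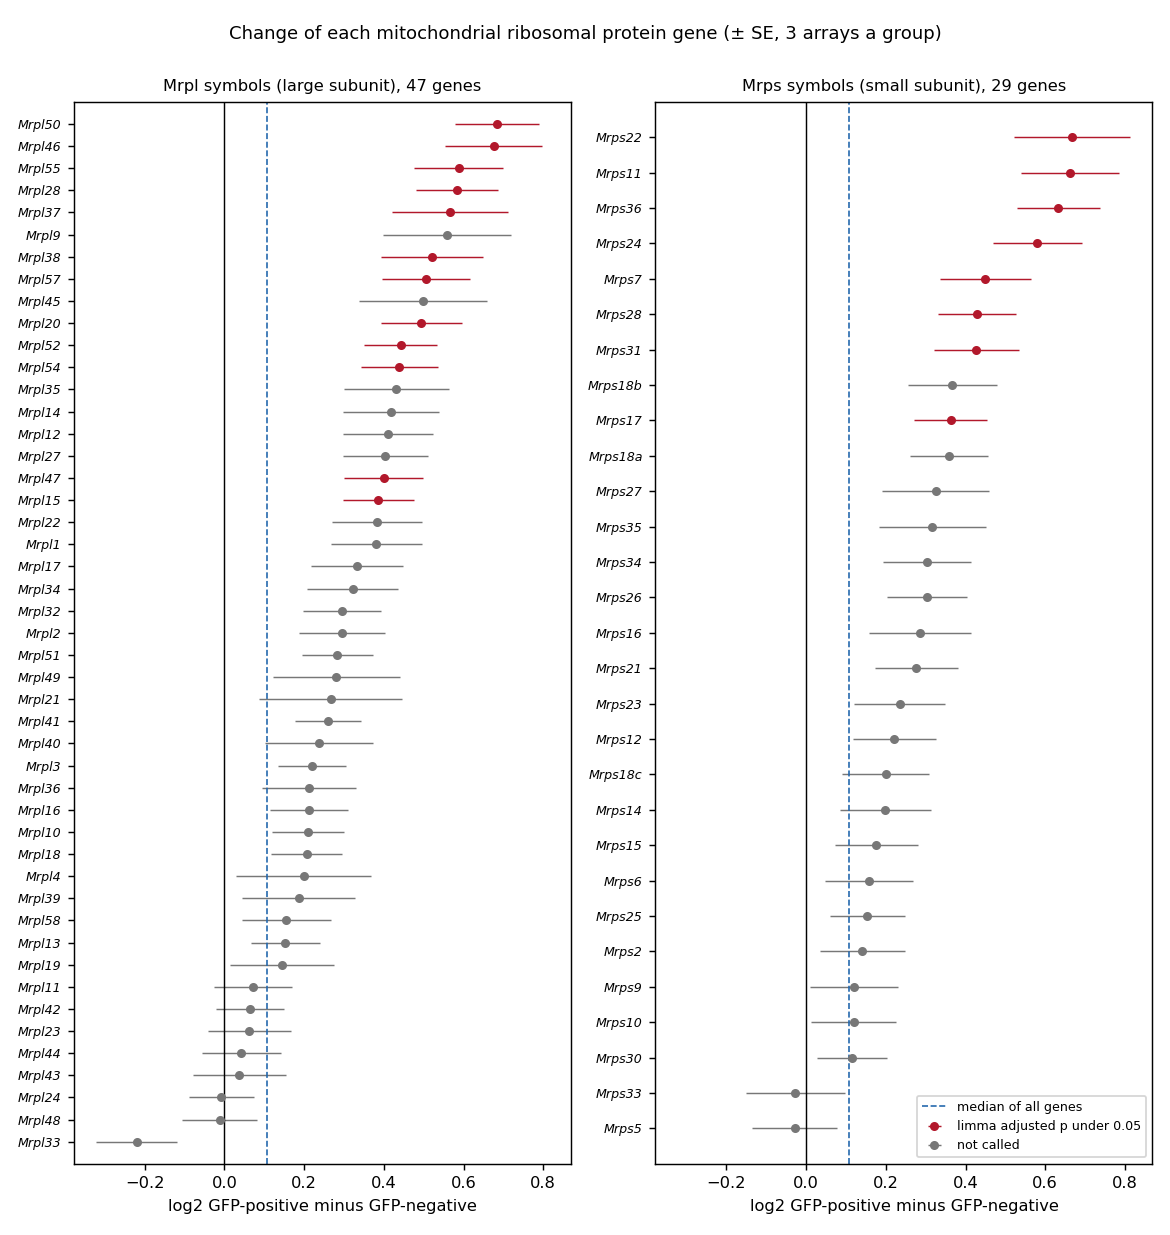
Change of each of the 76 genes on the x axis (log2 GFP-positive minus GFP-negative, points with bars of 1 SE, 3 arrays a group), with Mrpl symbols on the left and Mrps symbols on the right, red where the limma adjusted p was under 0.05. Nearly all points lie to the right of 0, from -0.22 for Mrpl33 to 0.68 for Mrpl50, and most lie to the right of the dashed line at the all-gene median of 0.11.

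Both subunits shifted by nearly the same amount. Large-subunit symbols had a median change of 0.29 with 12 of 47 genes called higher (25.5%), and small-subunit symbols a median of 0.29 with 8 of 29 called higher (27.6%). The difference between the medians was 0.0084, smaller than the SD of 0.0137 that this difference showed between arrays. In structures of the mammalian mitoribosome, Mrps18a and Mrps30 sit in the large subunit and Mrps36 is not a ribosomal protein. Counted that way, the medians were 0.29 for 49 large-subunit genes and 0.28 for 26 small-subunit genes. The sign of the difference between the subunits turned with the choice of probe set, to -0.0094 with the most variable probe set of each gene and to -0.0143 with the mean of all its probe sets.

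Among the 29 large-subunit proteins with a bacterial counterpart, 5 were called higher, with a median change of 0.29. Mrpl28, related to bacterial L28, read 10.90, 10.72 and 10.65 (log2 intensity) on the GFP-negative arrays and 11.40, 11.32 and 11.30 on the GFP-positive arrays. Mrpl55, related to bacterial L31, read 10.46, 10.27 and 10.23 against 11.03, 10.89 and 10.80. In both genes the lowest GFP-positive array was above the highest GFP-negative array, and the changes were 0.58 ± 0.10 (SE) for Mrpl28 (limma adjusted p = 0.0150) and 0.59 ± 0.11 for Mrpl55 (adjusted p = 0.0192). Mrpl20, the counterpart of a bacterial protein needed early in assembly of the large subunit, read 11.90, 11.71 and 11.81 against 12.41, 12.25 and 12.24, or 1.41-fold (adjusted p = 0.0254).

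Mrpl15 and Mrpl47 were the other members of that group past the threshold, at 1.31-fold (adjusted p = 0.0374) and 1.32-fold (adjusted p = 0.0468). Mrpl15 lost its call in each of the 6 fits that left out 1 array. Of the group's members that were not called, Mrpl9 had the widest difference, 0.56 ± 0.16 (SE), with a limma adjusted p of 0.0699. Its GFP-negative arrays read 11.05, 10.63 and 10.69 and its GFP-positive arrays 11.12, 11.51 and 11.42, so GFP-positive array 1 was only just above GFP-negative array 1. Mrpl12, which also binds the mitochondrial RNA polymerase, differed by 0.41 ± 0.11 (SE; adjusted p = 0.0606).

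Mrpl33 was the exception within the large subunit. It read 11.69, 11.93 and 11.91 on the GFP-negative arrays and 11.65, 11.58 and 11.65 on the GFP-positive arrays, a difference of -0.22 ± 0.10 (SE). The groups did not overlap, but the limma adjusted p was 0.197, so this value did not pass the test. Mrpl24 sat close to 0 with little spread, at 12.96, 12.95 and 12.96 against 12.95, 12.92 and 12.99. Its difference was -0.0078, which became 0.0693 when each array's median was subtracted.

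The 18 large-subunit proteins found only in mitochondria included 7 called higher, with a median change of 0.28. Mrpl50 had the largest change of the family: 11.76, 11.72 and 11.48 on the GFP-negative arrays and 12.34, 12.34 and 12.33 on the GFP-positive arrays. The 3 GFP-positive values lay within 0.0124 of each other, and the difference was 0.68 ± 0.11 (SE), or 1.61-fold (limma adjusted p = 0.00954). It was the only called member that kept its call in all 6 fits that left out 1 array. A second, dimmer probe set of Mrpl50 gave 0.18 ± 0.14 (adjusted p = 0.426), with 10.08, 10.55 and 10.47 against 10.50, 10.57 and 10.56, so the size of this change rests on 1 probe set.

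Mrpl52 had the most probe sets called, 3 of 4. Its brightest read 13.31, 13.23 and 13.27 against 13.62, 13.72 and 13.79, or 1.36-fold (limma adjusted p = 0.0258), and the other called probe sets gave changes of 0.69 and 0.78. GFP-positive arrays were above GFP-negative arrays on all 3 of these. Mrpl57, a short protein also named Mrp63, read 11.23, 11.09 and 10.95 against 11.69, 11.54 and 11.55, or 1.42-fold (adjusted p = 0.0302).

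Mrpl37 changed 1.48-fold but lay at the edge of the threshold (limma adjusted p = 0.0499). On the GFP-negative arrays it read 9.87, 9.47 and 9.44, so GFP-negative array 1 was nearest to the GFP-positive values of 10.24, 10.21 and 10.03. Mrpl38 was 1.44-fold higher (adjusted p = 0.0448) and kept its call in none of the fits that left out 1 array. Mrpl54 was 1.36-fold higher (adjusted p = 0.0311). Mrpl51 read 13.02, 13.01 and 12.89 against 13.28, 13.28 and 13.21, with no overlap but an adjusted p of 0.0844. Mrpl44, which carries a ribonuclease III-like domain, differed by 0.0420 (adjusted p = 0.802), and Mrpl58, a peptidyl-tRNA hydrolase that releases stalled chains, by 0.16 (adjusted p = 0.383).

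Small-subunit proteins with a bacterial counterpart numbered 16, of which 5 were called higher, with a median change of 0.21. Mrps11 had the widest difference: 10.80, 10.65 and 10.57 on the GFP-negative arrays against 11.53, 11.25 and 11.23, or 1.58-fold (limma adjusted p = 0.0179). GFP-positive array 1 stood highest. Mrps24, the S3 homologue at the entry of the messenger RNA channel, read 10.92, 11.11 and 10.79 against 11.56, 11.53 and 11.46, or 1.49-fold (adjusted p = 0.0204). Mrps7, an S7 homologue that binds the head of the small subunit, read 11.04, 10.75 and 10.74 against 11.36, 11.24 and 11.28. The groups did not overlap in Mrps24 or Mrps7, although the adjusted p of Mrps7 was 0.0489.

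Mrps28 was 1.35-fold higher (limma adjusted p = 0.0353) and Mrps17 1.29-fold (adjusted p = 0.0490). The lowest value of this group was that of Mrps5, at -0.0291 by its brightest probe set. That probe set read 10.17, 10.12 and 10.12 against 10.28, 10.05 and 10.002, and the groups overlapped. A second probe set of Mrps5 read 9.29, 9.13 and 9.10 against 9.90, 9.77 and 9.74, a change of 0.63 (adjusted p = 0.0107), and another gave 0.67 (adjusted p = 0.0241). The probe sets of Mrps5 therefore disagreed, and its change depends on which is read.

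Of the 9 small-subunit proteins found only in mitochondria, 2 were called higher, with a median change of 0.30. Mrps22, in which inherited mutations cause a human mitochondrial disease, read 11.07, 10.75 and 10.60 against 11.60, 11.42 and 11.40, or 1.59-fold (limma adjusted p = 0.0309). Its GFP-negative arrays were widely spread (SD 0.24, n = 3), with array 1 highest. Mrps31 was 1.35-fold higher (adjusted p = 0.0463) and kept its call in no fit that left out 1 array. Mrps27, which binds RNA, read 9.53, 9.51 and 9.37 against 9.90, 9.94 and 9.54, so GFP-positive array 3 was only just above GFP-negative array 1 (adjusted p = 0.157). Mrps33 differed by -0.0272 (adjusted p = 0.901).

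The proteins with Mrps symbols that structures place elsewhere or that exist as S18 copies were also above 0. Mrps36, a subunit that links the alpha-ketoglutarate dehydrogenase complex and is not part of the ribosome, read 11.35, 11.13 and 11.13 against 11.91, 11.80 and 11.79, or 1.55-fold (limma adjusted p = 0.0119). Its 3 GFP-positive arrays were clearly separate from the GFP-negative arrays. The 3 copies of the S18 protein gave 0.36 ± 0.10 (SE) for Mrps18a (adjusted p = 0.0584), 0.37 ± 0.11 for Mrps18b (adjusted p = 0.0798) and 0.20 ± 0.11 for Mrps18c (adjusted p = 0.260). None of these passed the threshold, and Mrps30 differed by 0.11 ± 0.09 (adjusted p = 0.412).

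The family moved together from array to array within a group as well. GFP-negative array 1 gave the highest GFP-negative value for 64 of 76 members, and GFP-positive array 1 the highest GFP-positive value for 58 of 76. Among the genes of the brightest 25% those shares were 47.8% and 41.4%. The median deviation of the members from their GFP-negative mean was 0.12, -0.04 and -0.08 on the GFP-negative arrays and 0.35, 0.28 and 0.23 on the GFP-positive arrays. The medians of the groups thus did not overlap, and array 1 was highest in each. The SD over 3 arrays had a median of 0.123 in the GFP-negative group and 0.0862 in the GFP-positive group, and was larger in the GFP-negative group for 50 members.

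**Figure D2:**
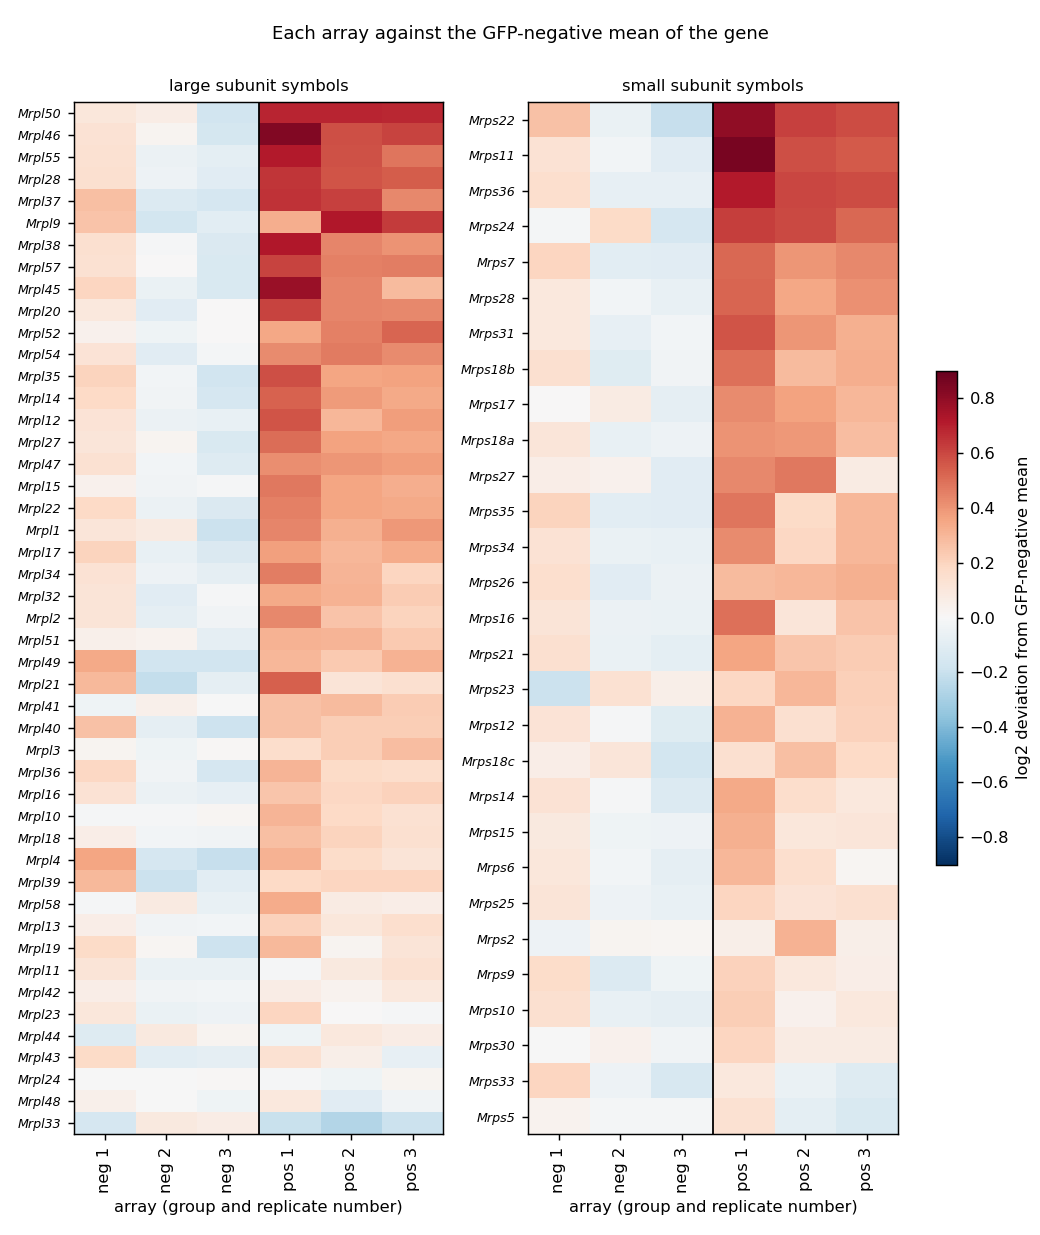
Heat map of the 76 genes (rows, sorted by change within each subunit) over the 6 arrays (columns), coloured by the log2 deviation from that gene's GFP-negative mean. The 3 GFP-positive columns are red for nearly every row, GFP-positive array 1 most often the deepest, and GFP-negative array 1 is paler red where the other GFP-negative arrays are pale blue.

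Other probe sets of the same genes gave a mixed picture. Of all 156 probe sets, 30 were called higher, 0 lower, and 19 had a difference below 0. Probe sets with a mean log2 intensity under 8 numbered 39, of which 1 was called and 12 lay below 0. Among the 117 probe sets at 8 or above, 7 lay below 0. At least 1 probe set was called for 24 genes, and in 15 genes some probe sets were called and others not.

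Genes missed by their brightest probe set but called by another were Mrps5, Mrpl49, Mrpl3 and Mrpl35. Mrpl49 read 10.54, 10.03 and 10.03 against 10.50, 10.44 and 10.51 on the brightest, where GFP-negative array 1 overlapped the GFP-positive arrays (limma adjusted p = 0.277). On its second probe set it read 9.74, 9.60 and 9.49 against 10.41, 10.21 and 10.26, a change of 0.69 (adjusted p = 0.0107) with no overlap. Mrpl3 gave 0.22 (adjusted p = 0.141) and 0.45 (adjusted p = 0.0362) on its brighter probe sets, and Mrpl35 0.43 (adjusted p = 0.0794) and 0.69 (adjusted p = 0.0420).

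**Figure D3:**
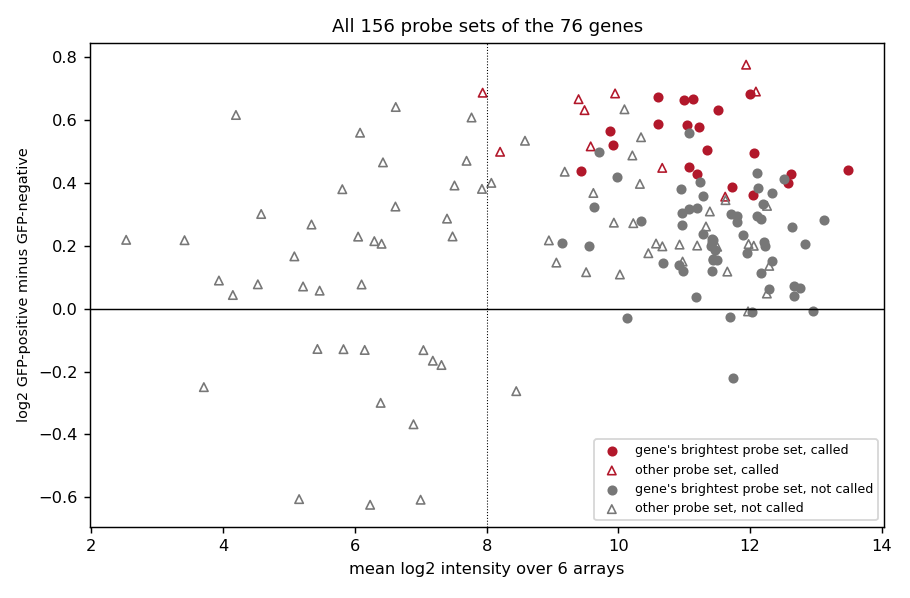
All 156 probe sets by mean log2 intensity over the 6 arrays (x axis) and log2 GFP-positive minus GFP-negative (y axis), filled circles for the brightest probe set of each gene, open triangles for the others, red where the limma adjusted p was under 0.05. Left of the dotted line at 8 the 39 probe sets scatter on both sides of 0, with 12 below it, and right of it 7 of 117 lie below 0.

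Several members begin close to another gene on the opposite strand, so that both start sites share a short stretch of DNA. This arrangement was looked at after the changes were known. In the RefSeq promoter table (build GRCm38.p6), 23 of the 67 members with an entry had a protein-coding gene starting head to head within 1000 bases, or 34.3%, against 8.48% of the 17491 protein-coding genes in that table. The table held no entry for Mrpl4, Mrpl13, Mrpl15, Mrpl19, Mrpl38, Mrpl54, Mrps28, Mrps34 and Mrps35. The 23 members formed 22 pairs, with 31 to 934 bases between the starts.

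Mrpl46 and Mrps11, from the large and the small subunit, form such a pair on chromosome 7 with 41 bases between their starts. Mrpl46 read 10.40, 10.29 and 10.11 on the GFP-negative arrays and 11.10, 10.85 and 10.87 on the GFP-positive arrays. Its change of 0.68 ± 0.12 (SE; limma adjusted p = 0.0163) stood beside 0.66 ± 0.12 for Mrps11 (adjusted p = 0.0179), and GFP-positive array 1 was the highest array for both. Mrpl50 lies 92 bases from the start of Zfp189, a zinc finger gene that read 7.13, 7.13 and 6.72 against 7.43, 7.57 and 7.65. Zfp189 had no overlap between the groups, a change of 0.56 ± 0.14 (SE) and an adjusted p of 0.0517. These pairs were picked after the changes were known. Mrpl51 and Ncapd2, not picked, were closer in size (0.28 and 0.27) than Mrpl50 and Zfp189. The stretches between the starts of the picked pairs are shown, all the DNA outside the transcribed region of either gene. Each is given 5′ to 3′ on the strand of the Mrpl gene (minus in both cases), with a match to a searched motif in capitals; Mrpl46 to Mrps11 is chr7:78783090-78783130 and Mrpl50 to Zfp189 is chr4:49521084-49521175.
Mrpl46 to Mrps11: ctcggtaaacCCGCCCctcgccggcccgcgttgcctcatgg
Mrpl50 to Zfp189: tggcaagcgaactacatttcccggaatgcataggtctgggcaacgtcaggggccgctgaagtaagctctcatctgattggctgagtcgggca
The capitals in the Mrpl46 stretch are the Sp1 motif read on the other strand, and the Mrpl50 stretch held no exact match to a searched motif. Near matches were not counted. Parts of the Mrpl50 stretch differ in 1 letter from searched motifs, among them the Ronin and ZNF143 core and the Sp1 motif.

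Head-to-head neighbours did not always go along with the member. Of the 21 neighbours outside the family, 16 had a difference above 0 (76.2%, beside 64.6% of all genes), with a median of 0.25. Of these neighbours 2 were called higher (9.52%, close to the 8.15% of all genes) and 1 lower. Ska3, a subunit of the complex that couples kinetochores to microtubules, starts 75 bases from Mrpl57 and read 8.02, 7.75 and 8.11 against 8.54, 8.75 and 8.78, a rise of 0.73 ± 0.13 (SE; limma adjusted p = 0.0161). Ighmbp2, a helicase gene 31 bases from Mrpl21, rose by 0.39 ± 0.09 (adjusted p = 0.0389), while Mrpl21 itself differed by 0.27 ± 0.18 (adjusted p = 0.352). Klc4, a kinesin light chain gene 140 bases from Mrpl2, read 8.60, 8.60 and 8.29 against 7.61, 7.74 and 7.39. Klc4 fell by 0.91 ± 0.14 on the log2 scale (adjusted p = 0.00957), whereas Mrpl2 differed by 0.29 ± 0.11 in the other direction (adjusted p = 0.122). The median change was 0.29 for the 23 head-to-head members, 7 of them called, and 0.23 for the other 44 with an entry, 9 of them called.

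**Figure D4:**
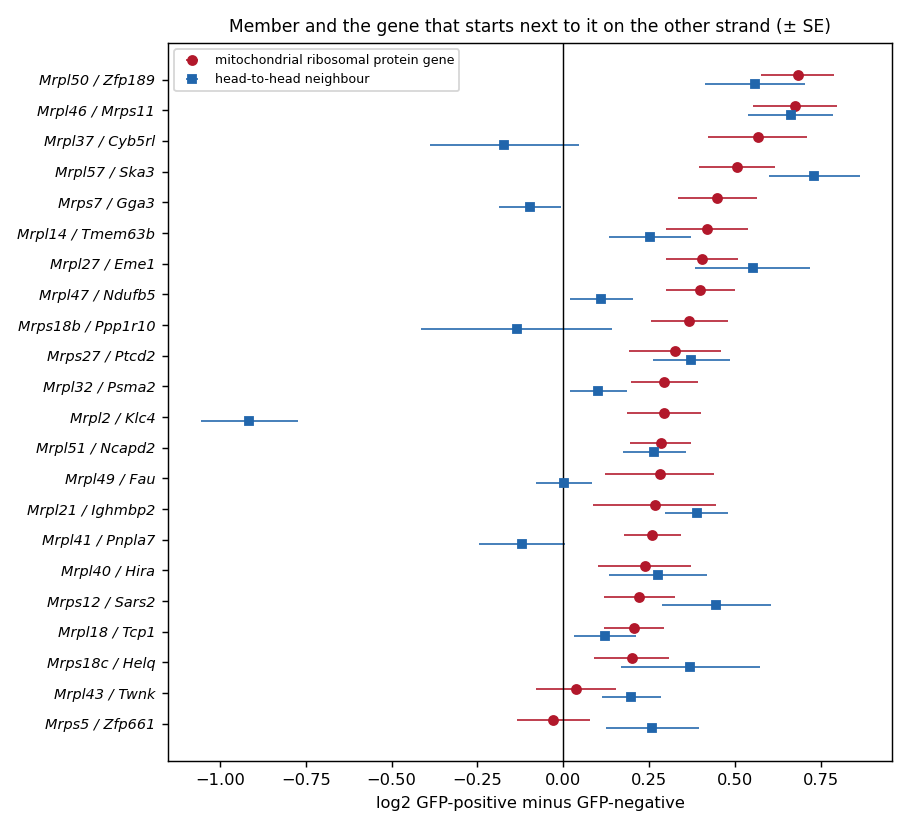
The 22 head-to-head pairs (rows), with the log2 change of the family member (red circles) and of the gene starting next to it on the other strand (blue squares), bars of 1 SE, 3 arrays a group; in the Mrpl46 and Mrps11 pair both are members. Circle and square nearly coincide for Mrpl46 and Mrps11 (0.68 and 0.66), and they lie on opposite sides of 0 for Mrpl2 (0.29) and Klc4 (-0.91).

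Promoters of the family were searched for motifs of factors known to bind nuclear genes for mitochondrial proteins, over 250 bases before to 50 after each start and on both strands. The 67 members with an entry had 73 promoters. The NRF1 core GCATGCGC was found in 8 of these and in 2.71% of all 32851 promoters in the table. That background was not limited to protein-coding genes, unlike the head-to-head shares. The GABP and ETS core CCGGAAGT was found in 12 member promoters (16.4%) and 3.89% of all, and the YY1 core AAGATGGC also in 12, against 2.75% of all. The Sp1 motif GGGCGG was in 53.4% and 35.7%, the E-box CACGTG in 9.59% and 7.15%, and the Ronin and ZNF143 core ACTACAAT in none of the member promoters and 0.737% of all. Among the 67 genes with an entry, 29 held an NRF1, GABP or YY1 core. A match is a description of the letters and not a binding site, and none of the searched motifs contains another.

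Cores were counted separately in members called and not called. Of the 16 called members with an entry, the NRF1 core was in 0, the GABP core in 2 (Mrps22 and Mrpl52) and the YY1 core in 4 (Mrpl37, Mrps24, Mrps7 and Mrps11). Of the 51 others, the NRF1 core was in 8, the GABP core in 10 and the YY1 core in 8. These stretches upstream of the start are shown as examples of the cores, in members called (Mrps22) and not called (the rest). Each is 5′ to 3′ on the gene's strand, with the core in capitals on either strand. Mrps22 is chr9:98601680-98601715, minus strand, Mrpl3 chr9:105053224-105053267, plus, Mrpl10 chr11:97041423-97041480, plus, and Mrpl32 chr13:14613038-14613149, minus.
Mrps22: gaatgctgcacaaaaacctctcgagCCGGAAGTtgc
Mrpl3: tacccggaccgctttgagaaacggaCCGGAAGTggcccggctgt
Mrpl10: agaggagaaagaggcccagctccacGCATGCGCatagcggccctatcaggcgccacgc
Mrpl32: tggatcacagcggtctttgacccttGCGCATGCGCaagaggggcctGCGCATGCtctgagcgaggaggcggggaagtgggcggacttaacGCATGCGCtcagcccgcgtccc
Mrpl10 read 9.03, 9.03 and 9.06 on the GFP-negative arrays and 9.34, 9.22 and 9.18 on the GFP-positive arrays, a difference of 0.21 ± 0.09 (SE; limma adjusted p = 0.169). Mrpl32 carries the NRF1 core at several places. It read 12.07, 11.85 and 11.94 on the GFP-negative arrays and 12.30, 12.27 and 12.18 on the GFP-positive arrays, a difference of 0.29 ± 0.10 (SE) with a limma adjusted p of 0.0998.

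The transcripts of the factors themselves did not share a direction, and their probe sets disagreed. By the brightest probe set of each of 11 nuclear regulators of mitochondrial genes, 0 were called higher and 2 lower, with a median change of 0.04. Gabpb1, a subunit of the GABP factor, read 11.98, 12.01 and 12.02 against 11.57, 11.46 and 11.45, and fell by 0.51 ± 0.09 (SE) on the log2 scale (limma adjusted p = 0.0131). Mycn, which codes for N-Myc, fell by 0.97 ± 0.22 (adjusted p = 0.0344). A second probe set of Gabpb1 differed by -0.0351 (adjusted p = 0.879), and those of Mycn by 0.07 and 0.32 (adjusted p = 0.759 and 0.401). Gabpb2, another subunit of the GABP factor, differed by 0.28 (adjusted p = 0.272) on its brightest probe set. On a dimmer one it was higher by 0.79 ± 0.12 (SE; limma adjusted p = 0.00997, 1 of 4 probe sets called). The brightest probe sets of Nrf1, Gabpa and Yy1, named because their motifs were searched, differed by 0.20 (adjusted p = 0.528), 0.07 (adjusted p = 0.713) and -0.07 (adjusted p = 0.654). Each of these genes had another, dimmer probe set that was higher. Gabpa, the DNA-binding subunit of GABP, read 10.08, 10.11 and 10.29 against 10.82, 10.69 and 10.70 on it, a change of 0.57 ± 0.10 (SE; adjusted p = 0.0149), with no overlap. For Nrf1 that change was 0.45 ± 0.10 (adjusted p = 0.0327, 1 of 4 probe sets) and for Yy1 0.49 ± 0.12 (adjusted p = 0.0433, 1 of 4 probe sets), so the reading of these factors depends on the probe set.

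Other genes that build or serve the mitochondrial ribosome are given beside the same background of 8.15% of all genes called higher and 64.6% above 0. Of 4 ribosomal subunits without an Mrpl or Mrps symbol, 2 were called higher. Dap3, a GTP-binding protein of the small subunit, read 12.14, 12.05 and 11.88 against 12.51, 12.43 and 12.46, or 1.36-fold (limma adjusted p = 0.0367), and Ptcd3, also of the small subunit, was 1.37-fold higher (adjusted p = 0.0193, 1 of 2 probe sets called). Of 26 assembly factors, 5 were called higher (19.2%) and 0 lower and 92.3% lay above 0, with a median change of 0.36. Mpv17l2, an inner membrane protein needed for ribosome assembly, read 10.19, 9.88 and 10.03 against 11.16, 10.82 and 10.75, or 1.84-fold (adjusted p = 0.0124), and kept its call in all 6 fits that left out 1 array. Rcc1l, Rpusd3 and Fastkd2, which act on the large ribosomal RNA, were 1.54-fold, 1.47-fold and 1.38-fold higher (adjusted p = 0.0489, 0.0124 and 0.0162).

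Translation factors included the gene with the widest difference of these lists. Of 13 measured, 4 were called higher (30.8%) and 0 lower, with a median change of 0.35. Gfm2, the elongation factor G that recycles ribosomes after termination, read 8.42, 8.33 and 8.001 against 9.21, 9.37 and 9.48, a 2.15-fold difference (limma adjusted p = 0.00517) with no overlap. Only 1 of the 2 probe sets of Gfm2 was called, so the size of this difference rests on 1 probe set. Gfm1, which moves the ribosome along the messenger RNA, was 1.45-fold higher (adjusted p = 0.0201), the recycling factor Mrrf 1.39-fold (adjusted p = 0.0436) and the initiation factor Mtif2 1.28-fold (adjusted p = 0.0387). A list of mitochondrial tRNA synthetases that also held Gatb, Gatc and Qrsl1, subunits of an amidotransferase, gave 2 of 19 called higher (10.5%, near the background). These were Iars2 (1.49-fold, adjusted p = 0.0346, 1 of 2 probe sets called) and Lars2 (1.34-fold, adjusted p = 0.0350), and the list median was 0.41. Of 14 genes of mitochondrial DNA maintenance and transcription, 2 were called higher (14.3%). These were the polymerase gene Polg (1.41-fold, adjusted p = 0.0220, 1 of 3 probe sets called) and Tfam (1.32-fold, adjusted p = 0.0300, 1 of 2 called), which packages mitochondrial DNA.

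The ribosomal proteins of the cytosol lay close to 0. Of 46 genes, 0 were called higher or lower by limma (at an unadjusted p under 0.05, 2 higher and 0 lower), with a median change of 0.0026. Their median deviation stayed between -0.0032 and 0.0162 on all 6 arrays. The difference between this list and the mitochondrial family was not tested. Many of these probe sets are bright, for instance Rplp2 at a mean log2 intensity of 14.48 on the GFP-negative arrays, and how far saturation narrows their differences was not tested. Others are dim, for instance Rps16 at 3.32 on the same arrays, and say little about the transcript.

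**Figure D5:**
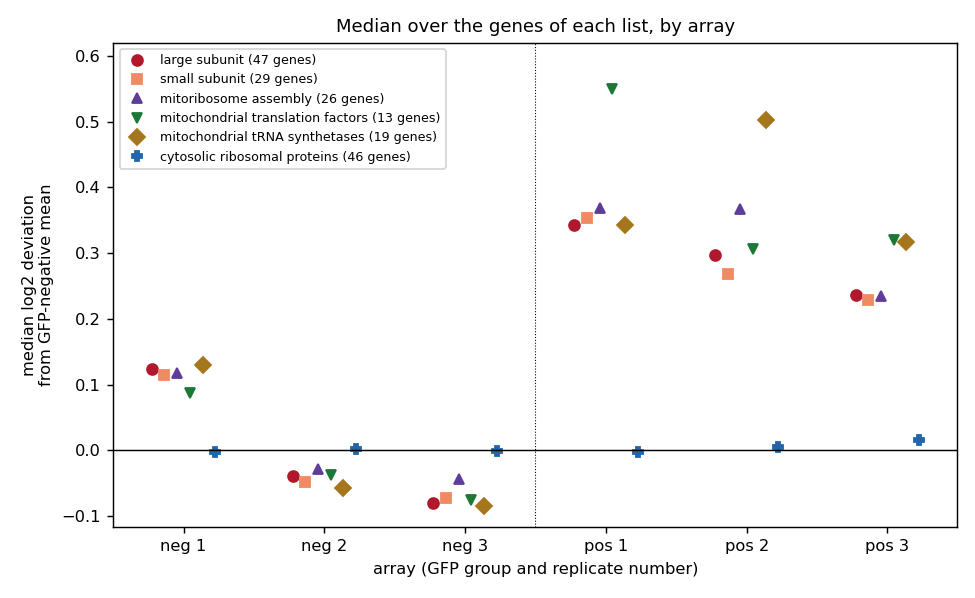
Median log2 deviation from the GFP-negative mean (y axis) over the genes of each list on each of the 6 arrays (x axis). Large and small subunit symbols overlie each other on every array and reach 0.34 and 0.35 on GFP-positive array 1, while the cytosolic ribosomal proteins stay between -0.0032 and 0.0162.

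The sorted populations also differed in their lineage genes. Hes1 read 5.74, 6.01 and 5.90 on the GFP-negative arrays and 7.20, 7.12 and 7.13 on the GFP-positive arrays, or 2.41-fold (limma adjusted p = 0.00141), in the direction of the sort. Kit, the marker of the gate, differed by -0.25 (adjusted p = 0.138). Of 12 erythroid markers, 7 were called higher in GFP-positive cells (58.3%, against 8.15% of all genes) and 11 lay above 0, with a median change of 0.64. Among those called were Epb42 (3.31-fold, adjusted p = 0.0150), Klf1 (2.36-fold, adjusted p = 0.00166), Epor (3.26-fold, adjusted p = 0.00118) and Gata1 (1.77-fold, adjusted p = 0.00554). Alas2 was the marker below 0, at -0.11 (adjusted p = 0.565). Slc4a1 (0.22, adjusted p = 0.259) and Hba-a1 (0.25, adjusted p = 0.203) were among those not called. The log2 of the summed intensity of the 12 erythroid markers was 15.53 to 15.56 on the GFP-negative arrays and 16.01 to 16.16 on the GFP-positive arrays. All 12 granulocyte and monocyte markers measured were called lower (9.92% of all genes were), with a median change of -1.64, and their summed level went from between 16.33 and 16.42 to between 15.09 and 15.42.

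These marker lists moved with the same split of arrays as the mitochondrial ribosomal proteins. In sorted bulk samples a different mix of cell types and a different amount of RNA per cell cannot be told apart, and the part of the markers in the family's change was not tested. On array 1 of each group, most members were highest within the group. The summed erythroid level there was 15.53 (GFP-negative) and 16.01 (GFP-positive), the lowest of each group. The summed granulocyte and monocyte level there was 16.42 and 15.42, the highest of each group. Of 9 B and plasma cell markers, 2 were called lower and 0 higher, and 4 lay above 0. In 3 (33.3%, beside 28.9% of all genes) every GFP-positive array was above every GFP-negative array. These 3 were dim, at 7.07 or below on every array, while the 2 called lower were brighter. The list thus did not share a direction, though its rises were in dim probe sets. Its summed levels, in which the brightest genes weigh most, were 12.08 to 12.36 on the GFP-negative arrays and 10.69 to 11.51 on the GFP-positive arrays. Jchain, the joining chain of secreted antibodies, read 8.85 on GFP-negative array 3 and 8.65 on GFP-positive array 1 and between 3.64 and 4.08 on the others. Those arrays stood apart by Jchain and not by Ighm, the immunoglobulin heavy chain gene, which read 10.11, 9.79 and 9.91 on the GFP-negative arrays and 8.36, 7.69 and 7.87 on the GFP-positive arrays. Without both of the arrays high in Jchain no member was called, and the medians were 0.25 for the large and 0.19 for the small subunit. In that fit of 2 against 2 arrays, 379 of all genes were called higher.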

How the data were processed

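Expression was measured on 6 Affymetrix mouse arrays, 3 a group. The authors deposited intensity values, not logarithms, and the submitters' processing notes name RMA; its version is not given in the sources. RMA quantile-normalises arrays, so a change common to most genes is partly removed. Array medians of the deposited intensity lay between 59.9 and 64.83. Precision is limited by the number of arrays.

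From these values, log2 was taken and limma 3.58.1 (R 4.3.3; lmFit, eBayes) was fitted to all 45037 probe sets left of 45101 after removing 64 array controls, with Benjamini-Hochberg adjustment over all of them, 2-sided, and a threshold of 0.05. Symbols came from the platform annotation: 34945 probe sets had 1 symbol, and all 76 members matched RefSeq. The fit was tested on simulated data for this comparison and 45037 probe sets: it recovered 41.2% of probe sets changed by 1 and 82.7% of those changed by 2 on the log2 scale. Every change of a member was smaller than 1, so these shares do not tell how often changes of the family's size are found. A size below 1 was also simulated, and its share is not given here. Tables and figures used Python 3.11.15, pandas 2.3.3, numpy 2.4.6 and matplotlib 3.10.9.

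The members, gene lists and tests were chosen with earlier results of these data known. Genes named were all called members if 30 or fewer, members whose probe sets disagree, and the S18 copies with Mrps30 and Mrps36. Also named were the brightest and dimmest members of each subunit and up to 4 called genes of each list. Others were chosen after their values were seen. These were Mrpl2, Mrpl9, Mrpl12, Mrpl21, Mrpl32, Mrpl33, Mrpl44, Mrpl58, Mrps33, Gabpb2, the factors whose motifs were searched and their other probe sets. Alas2, Slc4a1, Hba-a1, Rhag, Jchain, Ighm, Kit, Rplp2, Rps16 and the head-to-head neighbours were chosen in the same way. Alternatives changed the replicate block, variance prior, normalisation, centring, filter, array weights, pseudocount, probe set and arrays.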

Additional observations from a re-analysis of the deposited data

How the results depend on the processing

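The 20 members called higher became 34 with an intensity trend and robust prior, 36 with array medians subtracted, 40 when only the brightest 25% of probe sets was fitted, 0 with a fold floor of 1.5, 0 without both arrays high in Jchain, and between 1 and 19 without 1 array. For the large subunit, 12 became 23, 25, 27 and 0 (prior, medians, brightest 25%, both arrays), and 1 to 14 without 1 array. For the small subunit, 8 became 13 (brightest 25%) and 0 (both arrays), and 0 to 5 without 1 array. The cause of these shifts was not tested; the filter tests fewer probe sets and the last fits hold fewer arrays. No alternative called a member lower. Without 1 array the large-subunit median lay between 0.2666 and 0.3854. Without both arrays the small-subunit median was 0.1937. The difference of the medians, 0.0084, was 0.0557 without both arrays, -0.0094 with the most variable probe set, -0.0143 with the mean of probe sets, and 0.0044 to 0.0356 without 1 array.

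With the replicate number as a block (replicate block), 12 members were called, 4 of them small-subunit, and 11 of the 20 kept their call. Deviations of same-numbered arrays correlated at 0.023, 0.055 and 0.019. Those of differently numbered arrays lay between -0.0428 and 0.0159, below each of these. All of these correlations were small and the labels name no pairing, so the main fit used no block. Whether the numbers pair the arrays was not tested. Subtracting array medians moved the median change of all genes from 0.108 to 0.185 and the share of calls that were higher from 45.1% to 60.8%.

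Over all 76 members and all of these alternatives, 15 members had a sign that turned and 61 did not; 1 of the 15 (Mrpl15) was a called member, and no turned value passed the threshold. With array medians subtracted, Mrpl24 was 0.0693, Mrpl48 0.0658, Mrps33 0.0499 and Mrps5 0.0479. Without 1 array, Mrpl23 lay between -0.0021 and 0.1147, Mrpl24 between -0.0256 and 0.0079, Mrpl43 between -0.0113 and 0.1233, Mrpl44 between -0.0169 and 0.087, Mrpl48 between -0.0647 and 0.0328, Mrps33 between -0.1009 and 0.0704 and Mrps5 between -0.1137 and 0.0251. Without both arrays, Mrpl19 was -0.0235, Mrpl23 -0.024 and Mrpl43 -0.0507. With the most variable probe set, Mrpl3 was -0.1312, Mrpl15 -0.2623, Mrpl17 -0.1281, Mrpl19 -0.6058, Mrpl41 -0.2995, Mrpl44 -0.0085, Mrps5 0.215, Mrps9 -0.3677, Mrps10 -0.1287 and Mrps21 -0.6239. With the mean of probe sets, Mrpl17 was -0.0148, Mrps5 0.3901, Mrps10 -0.0048 and Mrps21 -0.1736.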

Other observations

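Some members lie only, or also, on probe sets annotated with a second gene and so stand outside the family as counted. A probe set shared by Nme3, a nucleoside diphosphate kinase gene, and Mrps34 read 9.72, 9.28 and 9.18 (log2 intensity) on the GFP-negative arrays and 10.48, 10.52 and 10.33 on the GFP-positive arrays. Its change of 1.05 ± 0.16 (SE; limma adjusted p = 0.00926) was larger than that of any member's own brightest probe set, while the probe set of Mrps34 alone gave 0.30 (adjusted p = 0.119). Which of these genes the shared signal comes from was not tested.

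Mrpl30 and Mrpl53 had no probe set of their own. A probe set shared by Mrpl30 and Gm6238 differed by 0.23 ± 0.09 (SE; limma adjusted p = 0.121), and a dimmer one by 0.33 ± 0.13 (adjusted p = 0.147). The probe set shared by Mrpl53 and Ccdc142 read 10.17, 10.01 and 9.86 against 10.66, 10.39 and 10.37, a difference of 0.46 ± 0.13 (adjusted p = 0.0656). All 3 lay above 0, and none passed the threshold.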
